A study of Mus musculus with 36 samples.

Results

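The comparison was of white adipose tissue (WAT) between 5 mice dosed with CAAM, a mixture of free amino acids that imitates a casein hydrolysate, and 7 mice dosed with water. The arrays were chosen by their titles and make up 12 of 36 in the series, the others being 12 arrays of liver and 12 of brown adipose tissue (BAT) from the same mice. The animals were male mice of the outbred ddY stock that arrived at 5 weeks of age and were acclimatised for 1 week. A 1.8% CAAM solution or water was given by gavage at 37.5 µL per g body weight once a day, 5 times in all, with chow freely available, and tissues were taken 4 h after the last dose. On that day the chow was removed before the dose. No transgene or other agent distinguished the groups. The study left out 2 further CAAM mice for the look of their liver, so the CAAM mice carry the numbers 2, 4, 5, 6 and 7 and the water mice 1 to 7. Equal numbers in the 2 groups are different animals, and the labels do not say which white fat depot was taken.

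White adipocytes store triglyceride, release fatty acids on adrenergic stimulation and secrete hormones such as leptin and adiponectin. Around them lie endothelium, fibroblasts and adipocyte progenitors, macrophages and lymphocytes, and the intra-abdominal depots are covered by a sheet of mesothelium. The gonadal depot of male mice lies against the epididymis, the duct in which sperm mature, whose epithelium secretes lipocalins, cystatins, defensins and a glutathione peroxidase, each in its own stretch of the duct. Dietary amino acids are known to act on cells through mTORC1 and, when scarce, through the transcription factor ATF4.

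Each Affymetrix mouse array gave 1 score per probe set, made by the distribution free weighted method. The level of a score is on a log2-like scale, but the method scales differences between arrays by an amount of its own for each probe set, so that the median probe set had a standard deviation (SD) of 1.42e-05 over the 12 arrays. No fold changes are given for that reason. Sizes are differences of group means in score units with the standard error (SE) of limma, or the standardised difference, which is the same difference divided by the within-group SD. Adiponectin (Adipoq) had a mean score of 14.5 and leptin (Lep) of 11.3 in both groups. The brown fat uncoupling protein gene Ucp1 scored 6.44, and Alb, the albumin of hepatocytes, 6.98, both near the median score of all probe sets, 6.915. Leptin ranged from 11.3294 over a median of 11.3319 to 11.3327 in water mice and was 11.3325, 11.3296, 11.3314, 11.3302 and 11.3296 in CAAM mice 2, 4, 5, 6 and 7. The groups overlapped throughout (exact permutation test, two-sided, p = 0.662).

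Some arrays stood apart before any comparison of the groups. Water mice 1 and 2 and CAAM mice 6 and 7 held high scores of different epididymal genes, as given below. The mean standardised score of 7 measured adipocyte markers was lowest in water 1 at -1.10, water 2 at -0.93 and CAAM 6 at -0.90. CAAM 6 also had the lowest score of 12 endothelial markers, -2.09, and the lowest weight in limma's array weighting, 0.343, with CAAM 2 next at 0.556.

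At the level of all probe sets, limma (adjusted p under 0.05) called 0 of 45037 (0%). Its lowest adjusted p rounded to 1. At an unadjusted p under 0.05, 885 probe sets (1.97%) were higher and 899 (2.0%) lower in CAAM mice. In 44 probe sets (0.0977%) all 5 CAAM mice lay above all 7 water mice, and in 56 (0.124%) all lay below. The median standardised difference of all probe sets was 0.01. Rank products, the test of the study, called 370 probe sets higher (0.822%) and 872 lower (1.94%) with an estimated false positive share under 0.05.

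The rank products calls need to be read with the spread of the scores in view. Of the 1176 probe sets called, 66 were called in both directions, and 96.6% belonged to the 10% of probe sets that varied most. Of all called, 173 had an unadjusted limma p under 0.05. When differences were divided by the SD before ranking, 69 were called higher and 75 lower, of which 1 and 12 were shared with the calls above. "Called" below refers to the ranking of undivided differences unless limma is named.

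**Figure D1:**
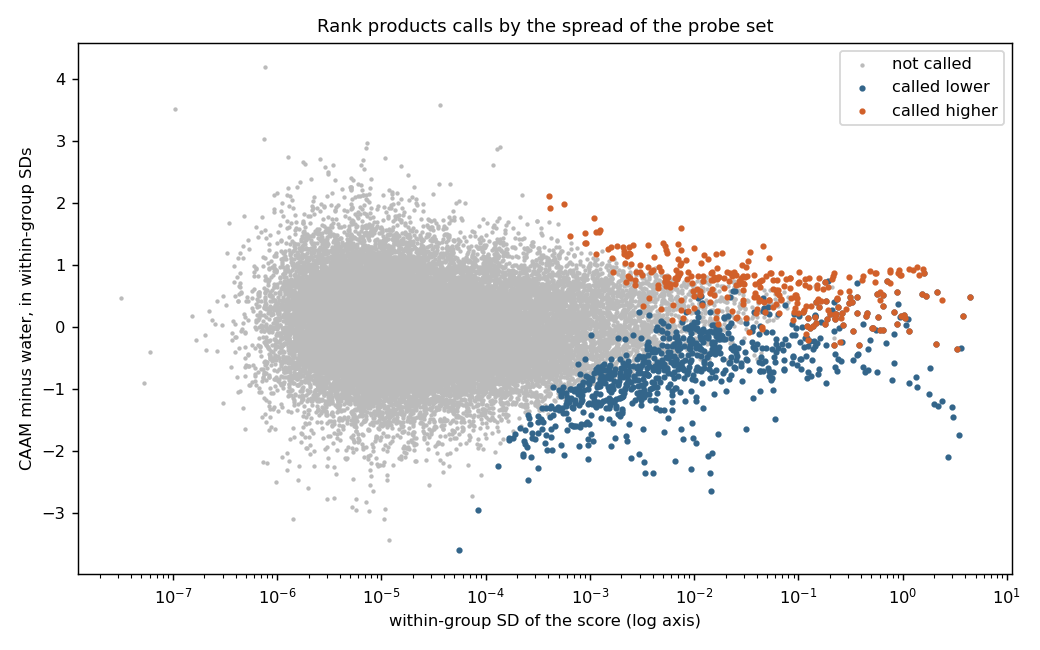
Standardised difference (CAAM minus water, in within-group SDs) against the within-group SD of the score (log axis) for probe sets with 1 gene symbol in WAT; grey points were not called by rank products, blue points were called lower and orange points higher. The calls crowd to the right, where the 10% of probe sets that varied most hold 96.6% of them, and many of them have standardised differences near 0.

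The largest differences between the groups in score units were in genes of the epididymis. Of 16 measured markers of its epithelium, 11 were lower and 5 higher by mean in CAAM mice, and the median standardised difference was -0.47. Rank products called 12 lower (1.94% over all probe sets) and 4 higher (0.822%), 2 of them in both directions. Without water mice 1 and 2 the median was 0.14, with 7 markers lower and 9 higher. RefSeq promoter sequences of Lcn8, Lcn9 and Gpx5, the genes that led the list, are shown first, since these members moved together (mouse build GRCm38.p6, 300 bases that end shortly after the start of the gene, 5′ to 3′ on the gene's strand). Lcn8 lies at chr2:25652868-25653167 on the + strand, Lcn9 at chr2:25822903-25823202 on the + strand and Gpx5 at chr13:21292637-21292936 on the - strand. Capitals mark AGAACA, the half-site of the androgen and glucocorticoid receptors, searched on both strands.
Lcn8: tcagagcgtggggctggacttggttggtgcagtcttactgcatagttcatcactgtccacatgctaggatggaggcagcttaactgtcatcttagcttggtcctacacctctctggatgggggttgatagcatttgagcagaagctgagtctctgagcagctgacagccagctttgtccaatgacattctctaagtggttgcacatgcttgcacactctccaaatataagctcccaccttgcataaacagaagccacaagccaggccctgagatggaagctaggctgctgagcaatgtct
Lcn9: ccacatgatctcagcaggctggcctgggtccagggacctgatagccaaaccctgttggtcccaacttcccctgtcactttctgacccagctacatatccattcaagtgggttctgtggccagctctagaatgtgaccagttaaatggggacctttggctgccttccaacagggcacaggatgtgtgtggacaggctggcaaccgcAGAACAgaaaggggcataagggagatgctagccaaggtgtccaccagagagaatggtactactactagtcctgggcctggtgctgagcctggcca
Gpx5: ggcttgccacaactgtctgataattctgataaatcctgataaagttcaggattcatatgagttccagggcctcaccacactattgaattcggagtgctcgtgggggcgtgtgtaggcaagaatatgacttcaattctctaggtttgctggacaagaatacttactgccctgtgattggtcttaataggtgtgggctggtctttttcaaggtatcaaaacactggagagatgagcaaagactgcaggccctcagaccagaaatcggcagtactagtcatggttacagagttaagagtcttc
Lcn9 held 1 match, and Lcn8 and Gpx5 held 0 matches in these windows. Among the 16 measured epididymis markers, 12 had a RefSeq promoter in the table, and 4 of these (Lcn9, Rnase10, Crisp4 and Aqp9) held the motif at 1 or more of their starts. It was held by 19.0% of all 32851 promoters of this length and, at any start, by 21.3% of the 27025 genes in the table.

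Lcn8, a lipocalin secreted by the proximal epididymis, scored 9.32 in the lowest water mouse, 10.23 at the median and 19.8 in the highest. In CAAM mice 2, 4, 5, 6 and 7 it scored 6.50, 6.66, 6.71, 6.48 and 6.36. All 7 water mice lay above all 5 CAAM mice, with water 1 and water 2 far above the other 5. The difference was -6.07 ± 1.99 (SE). The exact permutation test gave p = 0.00253, the smallest two-sided p that 7 against 5 mice allow, reached wherever groups do not overlap. In 0.124% of all probe sets all CAAM mice lay below all water mice. Lcn8 was picked as a leading gene in these same data, so its p is not corrected for that choice.

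Gpx5, the androgen-dependent glutathione peroxidase of the epididymis, had the same order of groups. Its score was 9.98 at the lowest, 10.60 at the median and 18.4 at the highest among water mice, and 6.81, 6.76, 6.96, 6.66 and 6.63 in the CAAM mice. The difference was -5.71 ± 1.56 (SE), with an exact permutation p of 0.00253, which is likewise not corrected for the choice of the gene.

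Lcn9, a second epididymal lipocalin, spanned 8.22 to 17.2 in water mice and 6.4 to 6.74 in CAAM mice. Cst11, a cystatin of the epididymis, spanned 7.23 to 16.3 and 5.91 to 6.05. Rnase10, an epididymal protein of the ribonuclease A family, spanned 7.35 to 14.6 and 6.43 to 6.65. In each of these genes, and in the adhesion protein gene Adam28, every water mouse was above every CAAM mouse. That made 6 of 16 measured epididymis markers whose groups did not overlap, against 0.124% of all probe sets. The list was chosen with earlier results of these data known, so this is a description and not a test.

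Outside the list, the genes called lower with the lowest estimated false positive share also included Cstdc2 (a cystatin family member), Pate5 and Teddm2. Their water scores reached 14.6, 13.1 and 12.2, and all CAAM scores were below all water scores. limma's test, which weighs a difference against its spread, gave unadjusted p of 0.0502, 0.055 and 0.0895, since water 1 and water 2 widened the spread of the water group.

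Left without water mice 1 and 2, the 5 remaining water mice still lay above the 5 CAAM mice, and limma then called 7 probe sets, all of them from these genes. They were Gpx5 (difference -3.67 ± 0.211, SE), Lcn8 (-3.46 ± 0.264), Lcn9 (-2.08 ± 0.185), Cst11, Cstdc2, Rnase10 and Pate5, with adjusted p from 0.00272 for Gpx5 to 0.0362 for Cstdc2. The 2 mice were left out because of their levels of such genes, so these p values depend on that choice.

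A second set of epididymal genes was high in CAAM mice and not in water mice 1 and 2. Serpina1f, a serpin of the epididymis, scored between 5.99 and 6.11 in all 7 water mice. It scored 6.13, 6.13 and 6.07 in CAAM mice 2, 4 and 5, but 11.2 in CAAM 6 and 7.52 in CAAM 7. Spint4, a Kunitz-type protease inhibitor, followed with 12.1 in CAAM 6 and 8.22 in CAAM 7 against at most 6.70 in water mice. Ces5a, an epididymal carboxylesterase, had 9.92 and 7.40 in these CAAM mice against at most 6.73. The exact permutation p was 0.0278 for Serpina1f, 0.172 for Spint4 and 0.109 for Ces5a.

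Adam7 and the defensin gene Defb42 were high in mice of both groups. Adam7 scored 16.2 in water 1, 13.7 in water 2 and 14.7 in CAAM 6, and at most 8.70 in any other mouse. Lcn5, the retinoic acid binding lipocalin of the epididymis, scored 8.67 in water 1, 11.3 in CAAM 6 and 7.79 in CAAM 7. Rank products called Defb42 and Lcn5 in both directions, and by exact permutation neither Adam7 (p = 0.444) nor Defb42 (p = 0.432) nor Lcn5 (p = 0.492) differed between the groups beyond the spread.

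**Figure D2:**
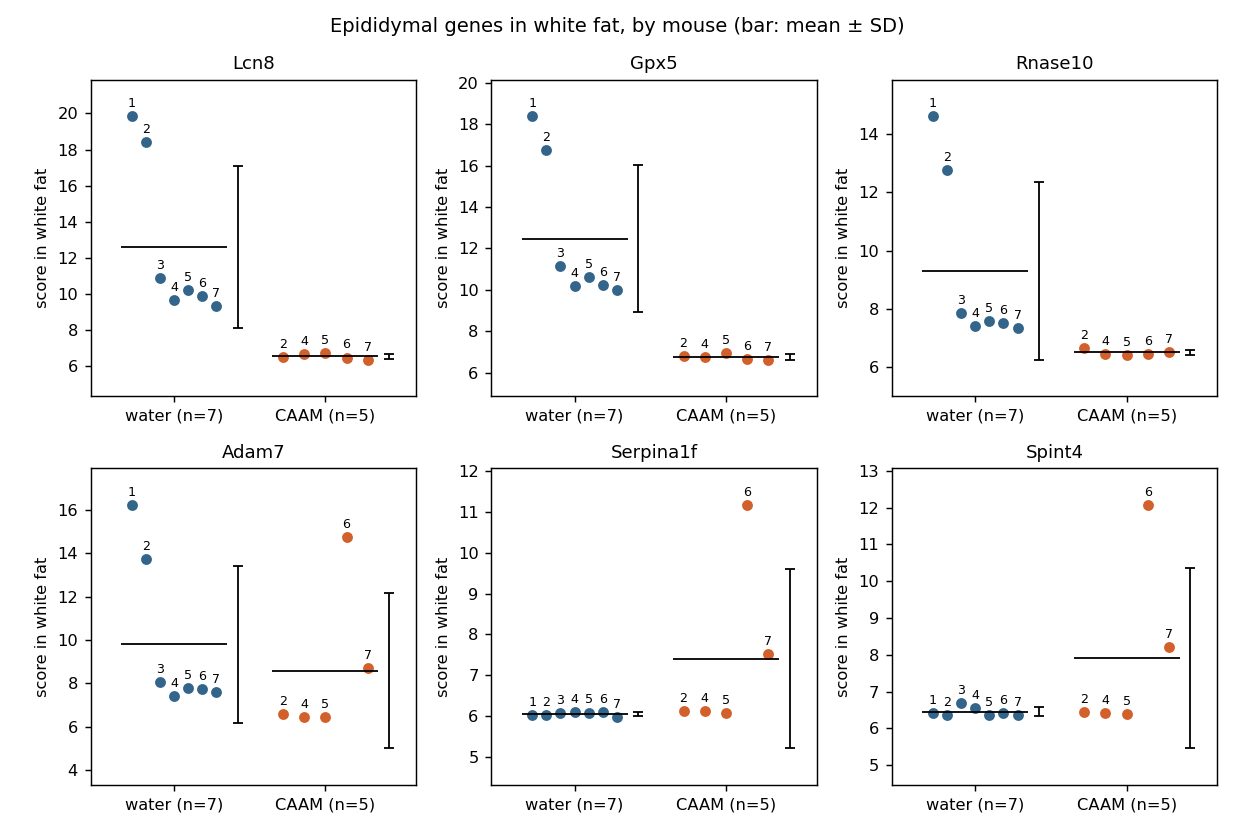
Scores of 6 epididymal genes in WAT of each mouse (y axis, score; points numbered by mouse, horizontal line the group mean, error bar ± SD). Lcn8, Gpx5 and Rnase10 are higher in all 7 water mice than in all 5 CAAM mice and highest in water 1 and 2, Adam7 is high in water 1, water 2 and CAAM 6, and Serpina1f and Spint4 are high in CAAM 6 and then CAAM 7.

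Lcn8, Gpx5, Serpina1f and Spint4 varied little in the liver and BAT of the same mice. Over all 12 mice Lcn8 was at 6.7403 in liver and 6.6365 in BAT, and Serpina1f at 6.1854 in liver and 6.1821 in BAT, each to the fourth decimal. Of 12 testis germ cell markers 2 were higher by mean in CAAM mice, and the mean standardised score of the 12 was highest in water 2, at 2.21. Without water mice 1 and 2, 9 of 12 were higher by mean. With all arrays 3 were called higher and 1 lower (0.822% and 1.94% over all probe sets). Of 11 seminal vesicle and prostate markers, 1 was called in each direction. What part epididymal tissue in the samples had in these values was not tested.

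Markers of the mesothelium formed the list with the lowest median. Of 12 measured markers, 10 had a lower mean in CAAM mice. Rank products called 11 lower (1.94% over all probe sets) and 2 of these, Krt8 and Krt18, also higher (0.822%). An unadjusted limma p under 0.05 in the lower direction was reached by 7 (2.0% over all probe sets). The median standardised difference was -1.84, beside 0.01 over all probe sets. Promoters of Upk3b (chr5:136038246-136038545, + strand) and Lrrn4 (chr2:132880813-132881112, - strand) are shown as those of members that were lower together, from RefSeq on GRCm38.p6, with GGAATG, the core of the TEAD factor motif, in capitals on either strand (CATTCC on the reverse).
Upk3b: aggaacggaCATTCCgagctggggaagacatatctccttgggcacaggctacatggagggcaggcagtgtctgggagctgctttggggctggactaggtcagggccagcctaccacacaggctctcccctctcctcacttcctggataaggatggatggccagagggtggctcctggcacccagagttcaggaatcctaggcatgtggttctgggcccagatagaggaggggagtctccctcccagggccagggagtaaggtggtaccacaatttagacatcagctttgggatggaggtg
Lrrn4: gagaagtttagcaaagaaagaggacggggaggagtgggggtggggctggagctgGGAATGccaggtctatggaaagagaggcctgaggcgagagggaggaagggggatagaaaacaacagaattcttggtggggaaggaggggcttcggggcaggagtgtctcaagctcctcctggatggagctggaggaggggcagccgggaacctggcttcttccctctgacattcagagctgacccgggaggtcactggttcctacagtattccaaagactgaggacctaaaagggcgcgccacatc
Each held 1 match. Of 8 mesothelial markers with a promoter in the table, 4 (Upk3b, Lrrn4, Gpm6a and Cldn15) held GGAATG at 1 or more starts, as did 16.6% of the 27025 genes in the table. Of single promoters 14.7% held it. Both genes shown are among the 4 holders, while Muc16, which was also lower, had a promoter without a match.

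Msln encodes mesothelin, a surface glycoprotein that marks mesothelial cells. Its score was 7.394 in the lowest water mouse, 7.399 at the median and 7.405 in the highest, and 7.397, 7.388, 7.390, 7.389 and 7.386 in CAAM mice 2, 4, 5, 6 and 7. CAAM 2 lay within the range of the water mice and the other 4 CAAM mice below it. The difference was -0.00938 ± 0.00228 (SE), a standardised difference of -2.35 (exact permutation p = 0.00758).

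Upk3b, a uroplakin of the mesothelial surface, ran from 9.272 over 9.292 to 9.316 in water mice. The CAAM mice had 9.285, 9.261, 9.266, 9.251 and 9.261, again with CAAM 2 alone inside the water range (exact permutation p = 0.00758). Gpm6a, a membrane glycoprotein, differed by -0.0330 ± 0.00803 (SE), and its exact permutation p was also 0.00758.

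Muc16, Bnc1, Lrrn4 and Upk1b had the arrangement of Msln. Standardised differences were -2.12 for the mucin Muc16, -2.05 for the transcription factor Bnc1, -1.87 for Lrrn4 and -1.80 for the uroplakin Upk1b, with exact permutation p of 0.00505, 0.0101, 0.00505 and 0.00505. In all 4, CAAM 2 lay inside the water range and CAAM 4, 5, 6 and 7 below it. Wt1, the Wilms tumour factor expressed in mesothelium, had a standardised difference of -1.25 with CAAM 6 alone below the water range (exact permutation p = 0.0657).

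Among the keratins and the claudin of the list the picture differed. Krt19 had a standardised difference of -1.09 and Cldn15 of -0.56. Krt8 and Krt18, the keratins of simple epithelia, which the epididymal duct also expresses, had 0.16 and 0.17, with their highest scores in CAAM 6 (8.15 and 8.90) and, next, in water 1.

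The count of mesothelial markers with a lower mean did not fall when the arrays that stood apart in epididymal genes were left out. Without water 1 and 2 and CAAM 6 and 7 all 12 were lower by mean and 11 were called lower, with a median of -1.27. An unadjusted limma p under 0.05 was reached by 2 of them there and by 7 with all arrays. Over all 45037 probe sets, rank products called 521 lower in that setting, and 1002 were lower at that limma p. The remaining water mice still had higher Lcn8 and Gpx5 scores than every CAAM mouse. Leaving out these arrays therefore cannot separate the mesothelial from the epididymal differences. In bulk tissue, fewer cells of a type and less RNA per cell cannot be told apart.

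**Figure D3:**
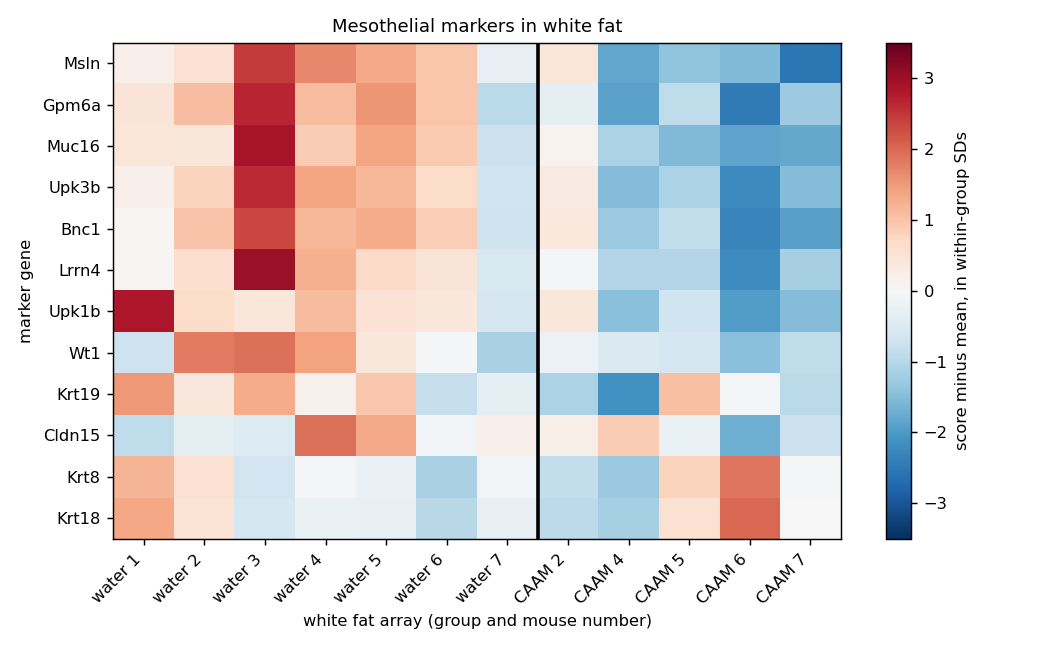
Standardised scores (colour, score minus its mean over the 12 arrays, in within-group SDs) of the 12 mesothelial markers (rows) in each WAT array (columns, water mice left of the black line). Msln to Upk1b are mostly red in water mice 1 to 6 and blue in CAAM 4 to 7, water 7 and CAAM 2 lie between, and Krt8 and Krt18 follow another pattern.

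Stromal markers were lower by mean in CAAM mice, by smaller amounts. Of 11 fibroblast and adipocyte progenitor markers 10 were lower, 4 were called lower (1.94% over all probe sets, mostly the most variable ones), and the median standardised difference was -0.96. Pi16, which marks a reservoir of mesenchymal progenitors, ran from 8.184 over 8.188 to 8.190 in water mice and was 8.182, 8.184, 8.186, 8.179 and 8.185 in CAAM mice (exact permutation p = 0.0177). Its ranges overlapped, with CAAM 6 lowest. Mfap5, a microfibril protein, had a standardised difference of -1.40 (exact permutation p = 0.0202), and Cd34 and Pdgfra, surface proteins of progenitors, of -1.20 and -1.13.

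Of 23 collagen and matrix genes, 20 were lower by mean and 3 were called lower (1.94% over all probe sets). Among the 3 were thrombospondin 1 (Thbs1, standardised difference -1.06) and the protease inhibitor Timp2 (-1.18). All 12 endothelial markers were lower by mean, with a median of -0.43, and Tek and Vwf were called lower. Without CAAM 6 and 7 that median was 0.11, while the progenitor list was at -0.77 and all 11 of its members were lower.

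Most T and NK cell markers and proliferation genes were higher by mean. All 9 measured T and NK cell markers had a higher mean in CAAM mice, with a median standardised difference of 1.01. Rank products called 5 of them higher (0.822% over all probe sets, mostly the most variable ones). Their mean standardised score ranged from -0.86 over a median of -0.41 to 0.02 in water mice. In CAAM mice 2, 4, 5, 6 and 7 it was 0.66, -0.00, 0.74, -0.71 and 2.24, so that CAAM 7 was far above the rest, CAAM 2 and 5 were above the water range, and CAAM 4 and 6 were within it.

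Cd8b1, a chain of the cytotoxic T cell coreceptor, had a standardised difference of 1.30 (exact permutation p = 0.0303), Cd3g, a chain of the T cell receptor complex, of 1.25 (p = 0.0682 by the same exact test), and the granzyme Gzma of 1.01. Icos, a T cell costimulator outside the list, was among the probe sets with the lowest limma p, with all 5 CAAM mice above all water mice. The differences are minute in score units, 2.96e-05 for Icos. Without CAAM 6 and 7 all 9 markers were still higher by mean, with a median of 0.93 and 5 at an unadjusted limma p under 0.05 (2 with all arrays). Over all 45037 probe sets 1091 were higher at that p there, and 885 (1.97%) with all arrays. Rank products called 0 of the 9 markers there, in a setting in which its higher calls over all probe sets went from 370 to 45.

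Of 21 cell cycle genes, 19 were higher by mean and 5 were called higher (0.822% over all probe sets), with a median of 0.73. Cdk1, the mitotic kinase, had a standardised difference of 1.6 (exact permutation p = 0.0227), and cyclin A2 (Ccna2) of 1.54 (p = 0.0328, same exact test). Ccna2 scored 7.2088, 7.2059, 7.2088, 7.2079 and 7.2099 in the CAAM mice and 7.2051 to 7.2072, with a median of 7.2069, in water mice. CAAM 4 was within the water range and the other 4 above it. Birc5, Mki67 and Rrm2, all genes of dividing cells, had 1.37, 1.32 and 1.36. Without CAAM 6 and 7, 20 of the 21 genes were higher by mean and the median was 0.47. There 0 genes were called by rank products and 0 had an unadjusted limma p under 0.05. With all arrays 5 were higher at that p, against 1.97% of all probe sets.

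Neutrophil markers were higher by mean in 7 of 8 genes (median 0.73), and 2 were called higher (0.822% over all probe sets). Macrophage markers were split evenly, with 8 of 16 higher by mean and a median of -0.04. B cell markers were higher by mean in 3 of 8 genes (median -0.19), and 2 were called lower (1.94% over all probe sets). The interferon response list, 17 of 21 genes higher by mean, had its highest scores in CAAM 7 (1.51) and water 3 (1.46). Without CAAM 6 and 7, 11 of its 21 genes were higher (median 0.03). Without these and water 1 and 2, 7 of 21 were higher (median -0.16).

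**Figure D4:**
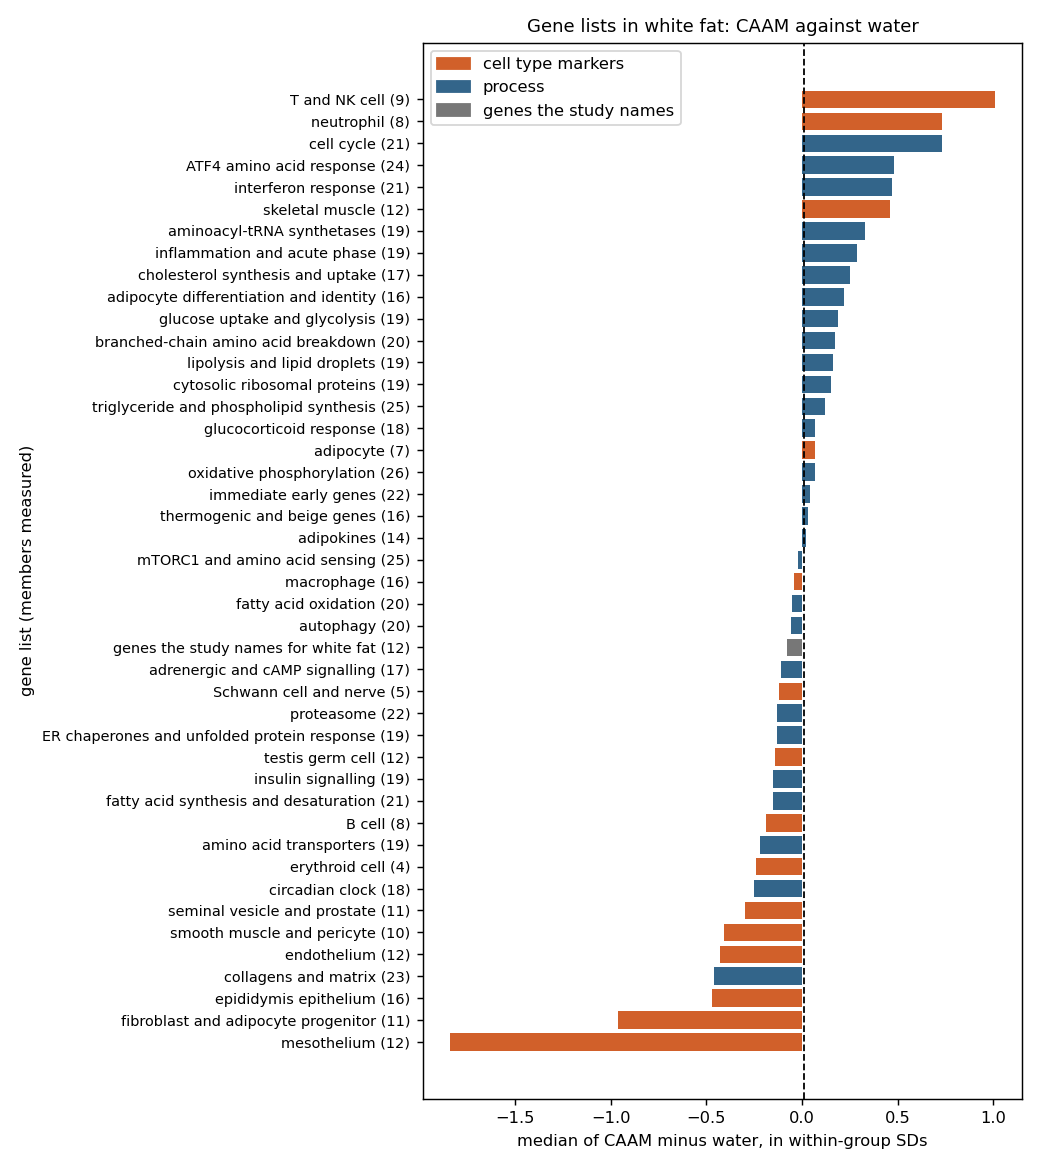
Median standardised difference (CAAM minus water, in within-group SDs) of 44 gene lists in WAT, with the number of members measured in brackets; the dashed line is the median of all probe sets, 0.01. Mesothelium (-1.84) and fibroblast and adipocyte progenitor (-0.96) lie lowest, T and NK cell (1.01) highest, and the lists of adipocyte genes and of lipid, amino acid and energy metabolism lie within 0.5 of 0 when all 12 arrays are used.

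The 7 adipocyte markers had a median standardised difference of 0.07, and 0 of them were called by rank products or had an unadjusted limma p under 0.05. Low arrays in both groups entered that median, as given above. Without water 1 and 2, 6 of 7 markers were lower by mean (median -0.49), and without CAAM 6 and 7, 6 of 7 were higher (0.35). Among adipokines, Rarres2, which encodes chemerin, was called lower. It ran from 11.419 over 11.421 to 11.423 in water mice and was 11.417, 11.418, 11.420, 11.415 and 11.421 in CAAM mice (exact permutation p = 0.0126). Both groups overlapped, with CAAM 5 and CAAM 7 inside the water range.

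Lipid synthesis showed 1 mouse apart from the others. The mean standardised score of 21 genes of fatty acid synthesis and desaturation was 1.66 in CAAM 2 and between -0.50 and -0.43 in the other 4 CAAM mice, against -0.32 to 0.32 in water mice. Acly, which makes cytosolic acetyl-CoA from citrate, scored 11.02 in CAAM 2 and 10.96, 10.97, 10.98 and 10.95 in CAAM 4, 5, 6 and 7, with 10.96 to 11.001 in water mice. Rank products called 8 of these 21 genes lower, against 1.94% of all probe sets. Among them were Acly, fatty acid synthase (Fasn) and the acetyl-CoA synthetase Acss2, for which exact permutation gave p = 0.351, 0.391 and 0.674. Without CAAM 6 and 7, which left CAAM 2 beside CAAM 4 and 5, 17 of the 21 genes were higher by mean. The median then went from -0.15 to 0.16, and over 19 alternatives it ranged from -0.67 to 0.24. CAAM 2 also had the highest score of the cholesterol synthesis list, 1.75. Insig1, a sterol-regulated brake on that pathway, was called higher, with all 5 CAAM mice above the water median (standardised difference 1.19, exact permutation p = 0.0253).

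Of the 20 fatty acid oxidation genes 10 were higher by mean (median -0.05) and 0 were called by rank products. CAAM 6 had the lowest score of the list, -1.75, and without it the median was 0.49. Without CAAM 6 and 7 the median was 0.73, with 19 of 20 genes higher and 7 at an unadjusted limma p under 0.05. In that setting 1091 of 45037 probe sets were higher at that p. Without water 1 and 2 the median of the list was -0.27, with 4 of 20 genes higher. Acaa2, the mitochondrial thiolase, had the lowest limma p among them. It had a standardised difference of 2.14 (exact permutation p = 0.00505) and a difference of 0.00048 ± 0.000128 (SE). Among 25 genes of triglyceride and phospholipid synthesis 17 were higher by mean (median 0.12). The lowest limma p in it belonged to Ptdss1, a phosphatidylserine synthase (standardised difference 1.52), and Gpat4, a glycerol-3-phosphate acyltransferase (1.30).

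The genes that the study named for white fat were chosen there for their response to another amino acid mixture against water, on arrays that are not analysed here, with the water mice as the shared controls. Their direction here is therefore not independent of that choice. Of 12 measured, 4 were higher by mean and the median was -0.08. Rank products called 7 of them lower (1.94% over all probe sets, mostly the most variable ones) and 1 of these also higher (0.822%). Mogat1 and Dgat1, acyltransferases of triglyceride synthesis, had standardised differences of 0.34 and 0.64, and Mogat2 and Dgat2 of -0.27 and -0.10. Slc37a4, the glucose-6-phosphate transporter, had 0.44, and the desaturase Scd1 -0.19. For none of these did the exact permutation test reach the threshold (lowest p 0.293, for Dgat1). The claudin gene Cldn3 was called in both directions, and Cldn10, which is also a gene of the epididymal epithelium, was called lower with scores from 7.25 to 7.51 in water mice and 7.20 to 7.49 in CAAM mice.

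Genes that respond to amino acid supply did not separate the groups by limma. In the ATF4 list, which includes serine synthesis and stress genes, 15 of 24 genes were higher by mean (median 0.48). Rank products called 4 higher and 1 lower (0.822% and 1.94% over all probe sets). The list score was 0.21, 0.13, 0.15, 0.14 and 0.11 in the CAAM mice and -0.57 to 0.43, with a median of -0.18, in water mice. All CAAM mice were above the water median but inside the water range. Ddit4, an inhibitor of mTORC1, had a standardised difference of 1.18 (exact permutation p = 0.0758). Psph, Cth and Mthfd2, enzymes of serine, cysteine and one-carbon metabolism, had 0.98, 0.88 and 0.89, and each was highest in CAAM 6, at 9.14, 8.23 and 7.38. Vldlr, a lipoprotein receptor, was called lower (-1.17).

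In the mTORC1 and amino acid sensing list 11 of 25 genes were higher by mean (median -0.02) and 0 were called by rank products. Sesn3, a sestrin, had the lowest limma p there (standardised difference -1.48, exact permutation p = 0.0328). Amino acid transporters had a median of -0.22, with 6 of 19 higher, and aminoacyl-tRNA synthetases of 0.33, with 13 of 19 higher, while Nars, the asparaginyl-tRNA synthetase, was lower (-1.97, exact permutation p = 0.0126). Branched-chain amino acid breakdown (median 0.17), oxidative phosphorylation (0.07), thermogenic genes (0.03) and cytosolic ribosomal proteins (0.15) lay near the median of all probe sets. These medians depended on the arrays that stood apart. Without CAAM 6 and 7, 25 of 26 oxidative phosphorylation genes were higher by mean (median 0.81). Of these, 9 had an unadjusted limma p under 0.05, beside 1091 of 45037 probe sets that were higher at that p. That setting left CAAM 2, 4 and 5, with list scores of 1.41, 0.70 and 0.13. Also higher there were 17 of 20 genes of branched-chain amino acid breakdown (0.67) and 14 of 16 thermogenic genes (0.58). Without water 1 and 2 the medians of oxidative phosphorylation and branched-chain amino acid breakdown were -0.16 and -0.13. In that setting 18 of 19 ribosomal protein genes were higher by mean (0.47). Without all 4 mice 24 of 26 oxidative phosphorylation genes were higher (0.64). In the adrenergic and cAMP list the transcription factor Atf2 had a standardised difference of -2.23 (exact permutation p = 0.00505). Atf2, Nars and Sesn3 were named for a low limma p within their lists. Their exact p values are not corrected for that choice and are a description.

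Hormone and clock genes were called in both directions. Of 18 glucocorticoid response genes, 6 were called higher and 5 lower, with a median of 0.07. Over all probe sets these calls were 0.822% and 1.94%, and they favour the most variable probe sets. The clock gene Per1 (standardised difference 1.21), the phosphatase Dusp1 (1.12) and the kinase Sgk1 (1.10) were among those called higher. The metallothioneins Mt1 (-0.36) and Mt2 (-0.44) and the transcription factor Zbtb16 (-0.63) were among those called lower. Of 18 circadian clock genes 14 were lower by mean (median -0.25), and Bhlhe40 (-0.87), Dbp (-0.39) and Per3 (-0.36) were called lower. Of 22 immediate early genes 4 were called lower, among them Ier5 (-1.17) and Ier3 (-0.98).

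**Figure D5:**
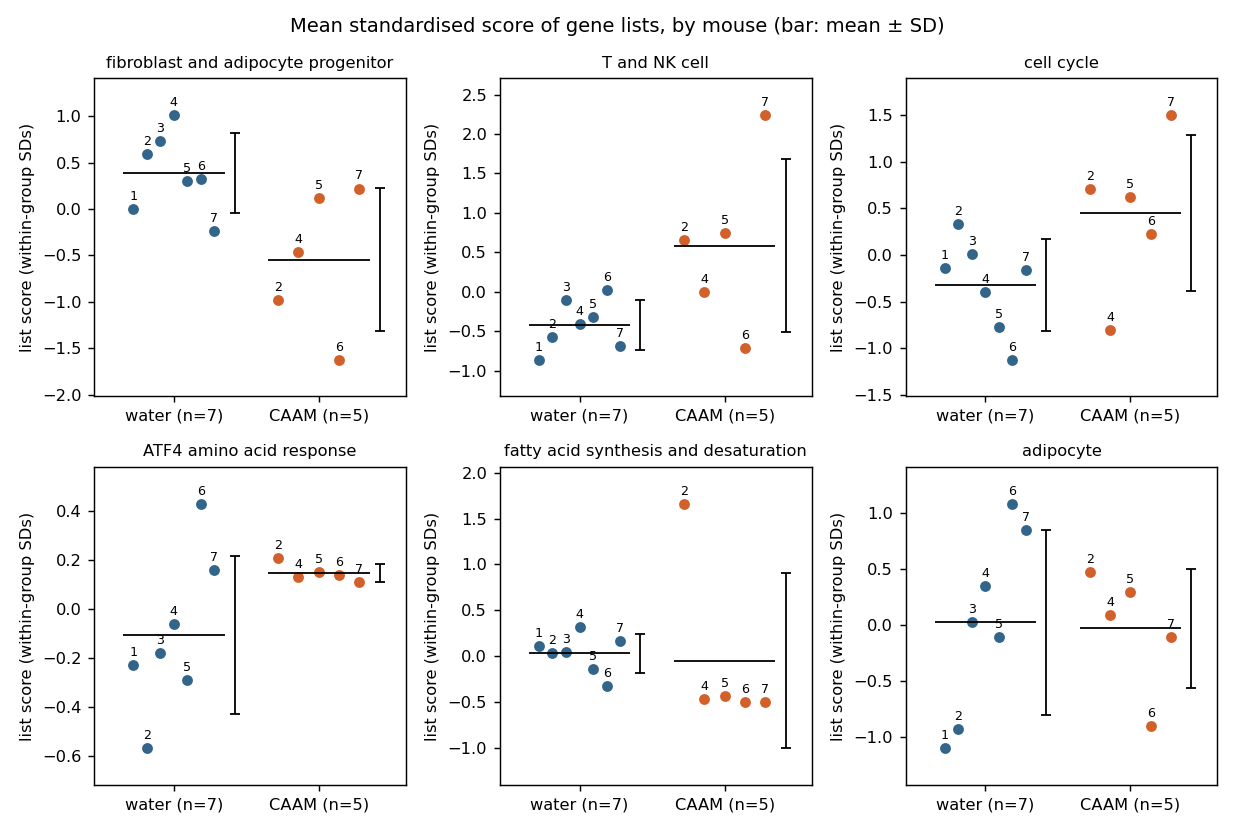
Mean standardised score (y axis, in within-group SDs) of 6 gene lists in WAT of each mouse (points numbered by mouse, horizontal line the group mean, error bar ± SD). CAAM 7 is highest in the T and NK cell and cell cycle lists, CAAM 2 in fatty acid synthesis, CAAM 6 is lowest in the progenitor list, and the adipocyte scores of the groups overlap.

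Single genes with the lowest limma p had small score differences. Rbm5, an RNA-binding splicing factor, scored 7.8417 to 7.8418 in water mice and 7.8419, 7.8420, 7.8420, 7.8419 and 7.8419 in the CAAM mice (standardised difference 3.59). Cd109, a GPI-anchored surface protein that binds transforming growth factor beta, had -3.59, Lrrc20 -3.42 and Fbxl16, an F-box protein, -3.08. In all 4 the groups did not overlap. They were chosen for their low p among 45037 probe sets, so this is a description. Of all probe sets, 0.0977% and 0.124% had all CAAM mice above or below all water mice.

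The differences in WAT were set against those in liver and BAT of the same mice, using limma on within-mouse differences of standardised scores. It called 148 probe sets against liver (0.329%) and 28 against BAT (0.0622%). Standardising gives all probe sets nearly the same variance, so the variance pooled across probe sets makes these p values too small. With the own variance of each probe set the counts were 0 (0%) and 1 (0.00222%), the latter a probe set without a gene symbol. For Msln the standardised difference was -2.35 in WAT, -0.48 in liver and 0.16 in BAT (adjusted p of the difference 0.367 and 0.254 by limma). For Lcn8 it was -1.74, 0.34 and -0.13 (0.289 and 0.536). Neither gene passed the threshold against either tissue, which does not show that its effects are alike.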

How the data were processed

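RNA of 12 white fat samples was hybridised to Affymetrix mouse expression arrays. Per the methods, the authors deposited 1 distribution free weighted score per probe set and array, made with Bioconductor (R 2.7.2 in the submitters' processing notes). Of 45101 probe sets, 64 controls were left out. By the platform's annotation, 34945 carried 1 gene symbol, 932 several and 9160 none. For a gene in a list the probe set of highest mean was taken, and 678 of 745 list members in 44 lists were measured. The members and lists were chosen with earlier results of these data known. Rank products used each of the 35 CAAM-water pairs and 100 permutations, or 20 in alternatives (python 3.11.15, numpy 2.4.6). Differences, SE and Benjamini-Hochberg adjusted p came from limma 3.58.1 (R 4.3.3, prior degrees of freedom 0.497). The study's labels do not say whether mice shared cages or array batches, and p values measure the spread between these mice. Single genes were tested by exact permutation, two-sided, which enumerated 792 ways to divide the mice. Many of these genes were picked by their rank in these same data, and the exact p values are not corrected for that choice. The genes named were the 10 per direction with the lowest values by rank products and by limma, called list members, the 2 members of each process list with the lowest limma p, the genes named by the study, the most abundant cell type markers, and Adipoq, Lep, Ucp1 and Alb. Further list members are named where their list is described. Both tests were tested on simulated data. Rank products assumes comparable spread across probe sets, which these scores do not have. Alternatives covered scaling, dim probe sets, probe sets per gene, priors, array weights, the ranking statistic and left-out arrays. The own-variance tissue test and leaving out mice in it were chosen after seeing the data. Precision is limited by the number of arrays. The exact depot and the composition of the samples were not analysed here. Promoters are from RefSeq (GRCm38.p6), and figures were drawn with matplotlib 3.10.9.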

Additional observations from a re-analysis of the deposited data

Results flagged for a closer look

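Of 240 groups of values checked (genes named and list scores, each in water and in CAAM mice), 23 held 1 mouse far from the others. Chance alone flags about 1 in 20. CAAM 6 was the highest of the CAAM mice for Adam7 (14.7), Defb42 (13.7), Serpina1f (11.2), Ces5a (9.92), the tight junction gene Cldn3 (7.66), Mthfd2 (7.38) and the epididymis list (0.70), and the lowest for the lipolysis and lipid droplet list (-0.79). CAAM 2 was the highest for Acss2 (9.36), Insig1 (10.4), Dgat2 (12.5) and the fatty acid synthesis (1.66) and proteasome (0.99) lists. CAAM 7 was the highest for Icos (6.88), and CAAM 5 for the smooth muscle and pericyte list (0.55).

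Among water mice, water 1 was the highest for Lcn5 (8.67) and Ces5a (6.73), water 2 the highest for the testis germ cell list (2.21) and the lowest for Sdhd (6.57), water 3 the highest for the interferon list (1.46), water 4 the highest for Mfap5 (10.4), water 6 the lowest for Psph (9.01) and water 7 the lowest for Scd1 (14.4).

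Limma on within-mouse differences called a WAT minus liver difference of the CAAM effect for 4 of the genes named. They were Gpm6a (-3.80, in within-group SDs, adjusted p = 0.0042), Cd109 (-3.34, adjusted p = 0.0197), Lrrc20 (-4.94, adjusted p = 3.59e-05) and Fbxl16 (-3.22, adjusted p = 0.0285). This fit pools variance across probe sets, which makes its p values too small, as given above. Cd109, Lrrc20 and Fbxl16 were also chosen for a low limma p in WAT. With the own variance of each probe set, the adjusted p of these 4 genes were 0.394, 0.465, 0.147 and 0.494.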

How the results depend on the processing

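The limma count of 0 was 7 without water mice 1 and 2 and ranged from 0 to 1 when 1 mouse was left out. The 1 probe set was Gcnt1, called without water 7. Probe sets at an unadjusted limma p under 0.05 ranged from 708 to 1205 higher and 667 to 1303 lower over left-out mice. They were 338 higher and 590 lower without dim probe sets, 293 and 397 with 1 probe set per gene, and the lower ones 1491 without water mice 1 and 2 and 557 without CAAM mice 6 and 7. Rank products calls ranged over left-out mice from 121 to 476 higher (121 without CAAM 7, 167 without CAAM 6, 176 without CAAM 5) and from 592 to 1119 lower. They were 198 higher and 487 lower without dim probe sets, 150 and 321 with 1 probe set per gene, 8 and 92 by the sum of ranks, 69 and 75 with differences divided by the SD, 574 and 462 without water mice 1 and 2, 21 and 521 without these and CAAM mice 6 and 7, and 45 higher without CAAM mice 6 and 7. With arrays centred on their median standardised score 246 were called higher.

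Equal mouse numbers did not pair the samples: their deviations correlated at -0.19 to -0.00 over 5 numbers. With the number as a replicate block limma counted 570 higher at an unadjusted p under 0.05, and rank products called 463 lower.

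The tissue comparison moved most. Leaving out 1 mouse gave 113 to 448 calls against liver (most without water 6) and 15 to 197 against BAT (most without CAAM 2), and the own variance of each probe set 0 and 1. The cause was not tested beyond the shared variance named above.

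The mesothelial median kept its sign under all 19 alternatives (-2.15 to -1.27), as did the progenitor, T and NK cell, cell cycle and ATF4 lists. The same held for neutrophil, smooth muscle and skeletal muscle markers, collagens, tRNA synthetases, inflammation, amino acid transporters and triglyceride synthesis. A kept sign was therefore not particular to lists with large medians. The epididymis median was 0.14 without water mice 1 and 2. Medians that moved by more than the spread between mice were, without CAAM mice 6 and 7, those of fatty acid oxidation (0.73), glucose uptake (0.69), thermogenic genes (0.58) and triglyceride synthesis (0.54), without all 4 mice glucose uptake (0.59) and neutrophil markers (0.32), and without CAAM 4 neutrophil markers (1.03).

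Differences of called genes that changed sign did so with the arrays left out. Without water mice 1 and 2 Adam7 was at 0.857. Without CAAM mice 6 and 7, Spint4 was at -0.0366, Acss2 at 0.00936, Fasn at 0.000238 and Mogat2 at 0.0177. Without all 4 mice these were -0.0628, 0.0105, 2.43e-05 and 0.0178, and Acly was at 0.000168. Mogat2 ranged from -0.0351 to 0.00106 over left-out mice. Of 1368 differences recomputed for 76 genes, 1239 kept direction and call or stayed within 1 SD.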

Other observations

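Sdhd, the membrane anchor subunit of succinate dehydrogenase, was low in 4 mice from both groups. It scored 6.57 in water 2, 6.58 in CAAM 2, 6.68 in CAAM 6 and 6.56 in CAAM 7, and between 8.12 and 8.54 in the other 8 mice. The same 4 mice were the lowest in liver, at 6.87 to 7.14 against at least 9.06, and in BAT, at 6.67 to 7.57 against at least 12.8. Rank products called Sdhd lower in CAAM mice, while the exact permutation test gave p = 0.275.

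Lcn2, the lipocalin of acute inflammation, ranged from 7.62 to 12.8 in water mice and from 6.72 to 10.7 in CAAM mice, with its highest scores in water 1 and water 2. Rank products called it lower, and the exact permutation test gave p = 0.293.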
